A study of Mus musculus with 16 samples.

Results

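The loop of Henle and distal tubule genes examined here are 9 genes taken by name from the deposited count table. Umod, Egf, Slc12a1 and Kcnj1 were listed under the thick ascending limb, though Egf is also made in the distal convoluted tubule. Slc12a3, Calb1, Trpm6, Pvalb and Trpv5 stand for the distal convoluted tubule and the segment just after it. All 9 were among the 40472 genes of the table, and 8 passed the filter on low counts, Pvalb being the exception. Poly(A)-selected RNA was sequenced from whole kidneys of male C57BL/6 mice aged 12 weeks. The IRP group had ischemia reperfusion injury, in which kidney blood flow is stopped and restored, and received PJ34, an inhibitor of PARP enzymes, while the IRV group had the same injury and received vehicle. The NP group was uninjured and received PJ34, and the NV group was uninjured and received vehicle. Each group held 4 libraries. The labels give no day of tissue collection and do not say that each library is from a separate animal. The p-values thus reflect only how libraries differ within groups. The main fit took that spread for each gene from all groups at once, not only from the groups compared. The study asked how PARP inhibition acts on the injured kidney.

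The thick ascending limb takes salt up from the tubular fluid through the sodium, potassium and chloride cotransporter NKCC2 (Slc12a1) and returns potassium to the fluid through the channel ROMK (Kcnj1). Its cells secrete uromodulin (Umod), the most abundant protein of normal urine. The distal convoluted tubule takes up sodium chloride through the thiazide-sensitive cotransporter NCC (Slc12a3) and magnesium through TRPM6, and its late part and the connecting tubule take up calcium through TRPV5, with calbindin D28K (Calb1) buffering it inside the cell. Parvalbumin (Pvalb) is a second calcium-binding protein, found in the early distal convoluted tubule. Egf encodes the precursor of epidermal growth factor, made by cells of the thick limb and the distal convoluted tubule, and this hormone raises magnesium uptake through TRPM6.

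Promoter sequences are shown for Egf and Slc12a3, which moved together in the results below, and for Umod, which did not move with them. Each runs 5′ to 3′ from 250 bases before to 50 bases after the annotated start of the gene, from RefSeq on build GRCm38.p6; 8 of the 9 genes had an entry. Capitals mark the TATA-box motif TATAAA, searched on both strands.
Egf (chr3:129755273-129755572, minus strand): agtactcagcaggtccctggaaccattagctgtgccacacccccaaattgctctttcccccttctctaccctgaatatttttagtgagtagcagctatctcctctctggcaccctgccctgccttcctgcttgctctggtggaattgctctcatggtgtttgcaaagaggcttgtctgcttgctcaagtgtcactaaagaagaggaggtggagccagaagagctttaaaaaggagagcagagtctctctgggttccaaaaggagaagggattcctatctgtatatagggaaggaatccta
Slc12a3 (chr8:94328958-94329257, plus strand): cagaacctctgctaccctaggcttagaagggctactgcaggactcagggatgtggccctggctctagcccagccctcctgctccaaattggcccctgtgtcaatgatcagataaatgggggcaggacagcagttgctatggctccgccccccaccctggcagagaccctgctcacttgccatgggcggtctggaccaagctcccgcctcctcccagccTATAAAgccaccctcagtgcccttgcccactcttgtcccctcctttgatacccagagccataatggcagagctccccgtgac
Umod (chr7:119479213-119479512, minus strand): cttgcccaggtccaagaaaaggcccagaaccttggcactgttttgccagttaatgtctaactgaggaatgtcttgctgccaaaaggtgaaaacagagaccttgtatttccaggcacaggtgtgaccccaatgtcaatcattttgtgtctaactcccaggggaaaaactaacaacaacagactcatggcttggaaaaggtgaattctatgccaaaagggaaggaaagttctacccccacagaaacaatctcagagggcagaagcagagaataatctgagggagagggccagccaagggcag
TATAAA lay 32 bases before the start of Slc12a3 and also occurred in the Trpv5 window, and 14.2% of the 27025 promoter windows of all genes held it. The printed Egf and Umod windows did not hold it. A match describes letters only.

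Library depth fell into 2 sets, defined by a total above or below 3000000 counts. The 4 IRP libraries and IRV replicates 3 and 4 were deep, with 4963638 to 6169748 counts, and the other 10 libraries were shallow, with 973812 to 1659983. Odorant, pheromone and taste receptor genes, which the kidney is not expected to use at such levels, summed to 239.7 to 500.2 CPM (a library's counts of a gene scaled to a fixed library size) across the deep set, as against 6215 to 11002 CPM in the shallow ones. Within IRP against NP, depth set and injury cannot be told apart, and only the IRV group holds libraries of both sets. The shallow and the deep IRV libraries also differ in the prefix of their deposited names, whose meaning the labels do not give. Within IRV, depth set and name prefix thus cannot be told apart. CPM are on TMM-scaled library sizes. Scaled by library totals alone, the median log2 change of all genes moved to 0.49 in IRV over NV and 0.57 in IRP over NP, against -0.030 and -0.011 with TMM. Umod, Slc12a1, Slc12a3 and Calb1 were detected in every library, by at least 978, 449, 190 and 126 counts, so these markers of both segments were present throughout. Pvalb was sparse, with 1 count in IRV replicate 1 and 2 in IRP replicate 1.

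In the injured kidneys of vehicle mice Egf, Slc12a3 and Calb1 fell, while the salt and potassium transporters of the thick limb and uromodulin did not pass the test. Calbindin (Calb1) had 129.5, 215, 80.2 and 105 CPM in IRV replicates 1 to 4, against 505, 399.8, 492 and 488 CPM in NV replicates 1 to 4. All IRV libraries lay below all NV libraries. Calb1 averaged 132 ± 58.4 CPM in IRV and 471 ± 48.3 CPM in NV (SD, n = 4 each), which is -1.85 ± 0.43 on the log2 scale (fitted change and SE; adjusted p = 0.0040 from edgeR's quasi-likelihood test with Benjamini-Hochberg adjustment over 13614 genes). Egf had 312, 521, 348 and 423 CPM in IRV and 1299, 1304, 1215 and 1202 CPM in NV. Again the groups did not overlap, and the IRV mean was 0.320 times the NV level by the fitted change of -1.64 ± 0.38 (adjusted p = 0.0044). The cotransporter gene Slc12a3 had 195, 384, 269 and 295 CPM in IRV and 747, 630.3, 664 and 647 CPM in NV, without overlap, and changed by -1.23 ± 0.40 (adjusted p = 0.029). The 3 lowered genes are 3 of 8 tested, and 11.1% of all tested genes were called lower in this comparison, 15.9% higher and 27% either way. In whole-kidney RNA, fewer cells of a type and less RNA per cell cannot be told apart.

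**Figure D1:**
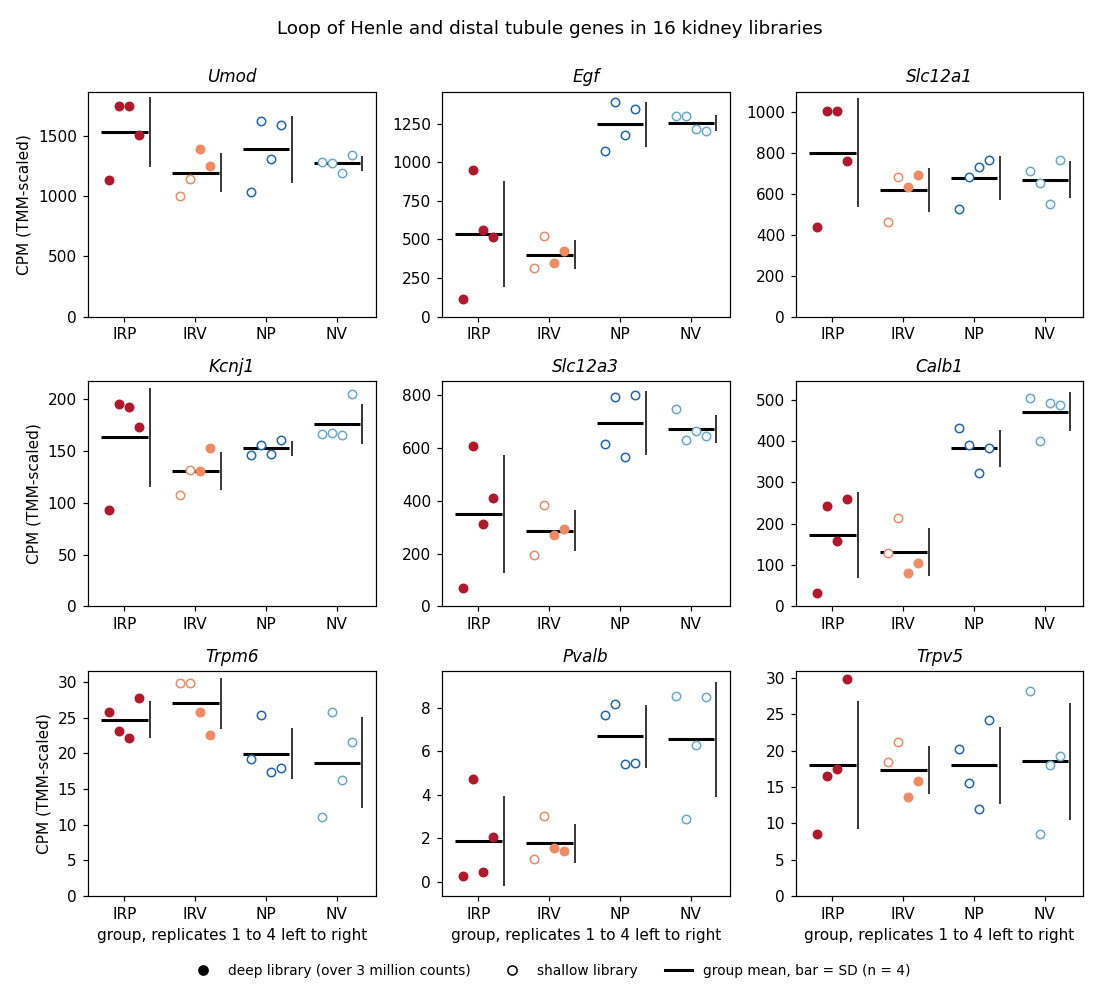
CPM on TMM-scaled library sizes for the 9 genes in the 16 libraries, by group; each point is a library (filled where deep, open where shallow), black lines are group means and thin bars SD (n = 4). Egf, Slc12a3 and Calb1 sit lower in IRP and IRV than in NP and NV, apart from IRP replicate 2 for Slc12a3, while Umod and Slc12a1 overlap across all groups.

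Both the shallow and the deep IRV libraries were below NV. Egf had 348 to 423 CPM in deep IRV replicates 3 and 4 and 312 to 521 CPM in shallow IRV replicates 1 and 2. Slc12a3 had 269 to 295 CPM in the deep and 195 to 384 CPM in the shallow IRV libraries. Calb1 was lower in the deep IRV libraries, at 80.2 to 105 CPM, than in the shallow ones, at 129.5 to 215 CPM. Within the shallow libraries alone, with 2 IRV and 4 NV libraries in the comparison, Egf changed by -1.58 ± 0.21 (adjusted p = 4.3e-05, edgeR), Slc12a3 by -1.20 ± 0.23 (adjusted p = 0.0018) and Calb1 by -1.44 ± 0.20 (adjusted p = 9.7e-05). That fit also held the 4 NP libraries, so these SEs and p-values mostly reflect uninjured spread and not how injured libraries vary. The Egf SD was 4.31% of the mean in NV and 11.9% in NP, against 23.1% in IRV and 64.0% in IRP. With the set as a covariate over all libraries the changes were -1.58 ± 0.47, -1.20 ± 0.49 and -1.44 ± 0.49, and only Egf kept its call (adjusted p = 0.032, 0.11 and 0.054), beside 6.13% of all genes called lower and 7.93% higher. Slc12a3 also lost its call without IRV replicate 1 (-1.09, adjusted p = 0.057), without IRV replicate 3 (-1.25, adjusted p = 0.065) and without NV replicate 1 (-1.23, adjusted p = 0.059), on scaling by library totals alone (-0.74 ± 0.36, adjusted p = 0.10) and without the filter on low counts (-0.93 ± 0.32, adjusted p = 0.067).

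The other thick limb genes had smaller differences between IRV and NV, none past the threshold. Uromodulin (Umod) had 1005, 1140.2, 1396 and 1251 CPM in IRV and 1287, 1275, 1197 and 1347 CPM in NV, so the log2 difference was -0.090, 95% interval -0.45 to 0.26 (adjusted p = 0.72, edgeR). Slc12a1 had 462, 684, 634 and 692 CPM in IRV and 709.6, 654, 552 and 764 CPM in NV, a difference of -0.12 (-0.58 to 0.35; adjusted p = 0.72). In both genes the IRV and NV libraries overlapped, and the intervals leave out a fall as large as that fitted for Slc12a3 or Egf. The channel gene Kcnj1 had 108, 131, 131 and 153 CPM in IRV and 167, 167, 166 and 205 CPM in NV. Every IRV library was below every NV library, as for 11.9% of all tested genes, but the difference of -0.42 ± 0.18 did not pass (adjusted p = 0.10). It passed within the shallow libraries, at -0.55 ± 0.16 (adjusted p = 0.026), where 6.83% of genes were called lower and 6.49% higher. On library totals alone, Umod, Slc12a1 and Kcnj1 differed by 0.43 ± 0.20, 0.39 ± 0.23 and 0.091 ± 0.20, so the sign of these 3 small differences depends on scaling.

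Neither channel gene of the distal tubule passed as lower in IRV. Trpm6, the magnesium channel, had 29.8, 29.8, 25.8 and 22.5 CPM in IRV and 11.1, 25.8, 16.2 and 21.6 CPM in NV, a difference of 0.50 ± 0.20 that did not pass (adjusted p = 0.079, edgeR). It rested on 13 to 28 counts per NV library, and passed as higher without NV replicate 2 (0.68, adjusted p = 0.027), on scaling by library totals alone (1.02 ± 0.22, adjusted p = 0.0012) and without the filter on low counts (0.81 ± 0.22, adjusted p = 0.012). In that order these settings called 1796 of 14152, 5716 of 13614 and 3124 of 40472 genes higher. Trpv5, the apical calcium channel, had 18.5, 21.3, 13.6 and 15.9 CPM in IRV and 28.2, 8.61, 18 and 19.3 CPM in NV. The IRV values lay inside the range of the NV values, with a difference of -0.16 ± 0.37 and 95% limits -0.94 to 0.62 (adjusted p = 0.78). Parvalbumin was too sparse for the filter. Pvalb had 1, 5, 11 and 11 counts in the IRV libraries (1.03, 3.04, 1.56 and 1.41 CPM) and 10, 3, 7 and 11 counts in the NV libraries (8.55, 2.87, 6.30 and 8.49 CPM). Only IRV replicate 2 overlapped NV, through NV replicate 2, and the mean CPM differed by -4.79 (exact permutation p = 0.0571, two-sided; 0.114 adjusted over 4 comparisons).

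**Figure D2:**
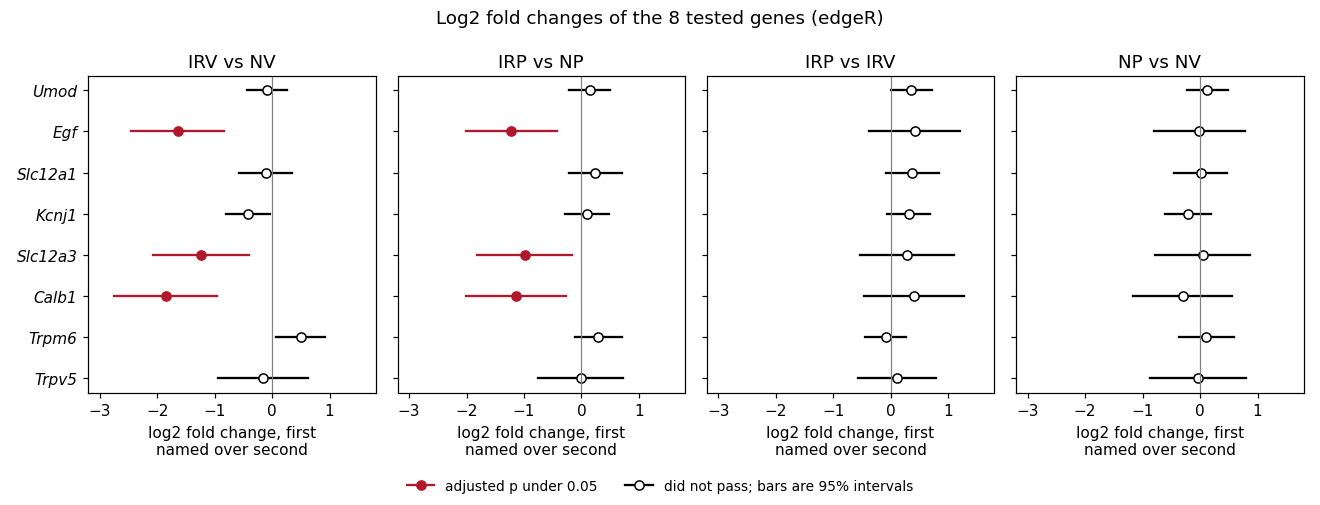
Log2 fold changes of the 8 tested genes with 95% intervals (edgeR) for IRV over NV, IRP over NP, IRP over IRV and NP over NV; filled red points passed an adjusted p of 0.05. Egf, Slc12a3 and Calb1 are the genes with red points, in both injury comparisons, and no gene has one in the PJ34 comparisons.

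Under PJ34, Egf, Slc12a3 and Calb1 were again the genes called lower after injury. Egf had 114, 951, 559 and 517 CPM in IRP and 1071, 1389.5, 1176 and 1346 CPM in NP, without overlap, a change of -1.22 ± 0.38 (adjusted p = 0.015, edgeR). Calb1 had 33.2, 242, 158 and 260.4 CPM in IRP and 432, 391, 322 and 383 CPM in NP, without overlap, a change of -1.14 ± 0.41 (adjusted p = 0.033). Slc12a3 had 70.6, 608, 311 and 411 CPM in IRP and 614, 791, 565 and 802 CPM in NP. IRP replicate 2 exceeded NP replicate 3, so the groups overlapped, and the change of -0.99 ± 0.39 lay at the threshold (adjusted p = 0.04996). The SDs of Egf, Slc12a3 and Calb1 were 64.0%, 63.8% and 59.8% of the mean in IRP, against 11.9%, 17.5% and 11.9% in NP. Since the fit held 1 estimate of spread per gene, these SEs and p-values also carry the tighter spread of the other groups. In this comparison 24% of all tested genes were called lower, 19.6% higher and 43.6% either way, so 3 of 8 is to be read against that larger share. Pvalb had 2, 26, 3 and 13 counts in the IRP libraries (0.242, 4.71, 0.441 and 2.08 CPM) and 8, 11, 5 and 7 counts in the NP libraries (7.69, 8.18, 5.44 and 5.47 CPM). The CPM did not overlap, which held for 21.2% of tested genes in this direction (exact permutation p = 0.0286, two-sided, the smallest that 4 against 4 can give; 0.114 adjusted over 4 comparisons). In edgeR without the filter Pvalb had -1.43 ± 0.66 and did not pass (adjusted p = 0.075), and without IRP replicate 2, when it met the filter, it passed as lower (-2.93, adjusted p = 0.0054). In the other 6 fits with 1 library left out where it met the filter, it did not pass (adjusted p = 0.061 to 0.11).

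Umod, Slc12a1 and Kcnj1 did not pass in IRP over NP either. Umod had 1133, 1751, 1753 and 1512 CPM in IRP and 1036, 1628, 1309 and 1593 CPM in NP, a log2 difference of 0.14 (95% interval -0.21 to 0.50). Slc12a1 had 439, 1003, 1003 and 759 CPM in IRP and 526, 684, 732 and 766 CPM in NP, a difference of 0.24 (-0.22 to 0.70). IRP replicates 2 and 3 stood above every NP library for Slc12a1, and IRP replicate 1 stood below every one. Kcnj1 had 92.9, 195, 193 and 173 CPM in IRP and 146, 156, 147 and 161 CPM in NP, a difference of 0.096 (-0.29 to 0.48). Trpm6 had 25.7, 23.2, 22.2 and 27.8 CPM in IRP and 19.2, 25.3, 17.4 and 18 CPM in NP, a difference of 0.30 ± 0.19 (adjusted p = 0.23, edgeR), and Trpv5 had 8.58, 16.5, 17.5 and 29.9 CPM in IRP and 20.2, 15.6, 12.0 and 24.2 CPM in NP, a difference of -0.013 (-0.75 to 0.73). Without IRP replicate 1, Slc12a1 passed as higher (0.46, adjusted p = 0.049).

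All IRP libraries were deep and all NP libraries shallow. With the set as a covariate, which rests on IRV alone to separate the 2, none of the 8 genes passed. Egf then had -1.10 ± 0.62, Slc12a3 -0.94 ± 0.65 and Calb1 -0.24 ± 0.64 (adjusted p = 0.38, 0.49 and 0.90, edgeR), and 0.786% of all genes were called lower and 2.52% higher. When library totals were the sole scaling, the 3 genes had -0.71 ± 0.34, -0.48 ± 0.36 and -0.61 ± 0.36 and did not pass, while Umod, Slc12a1, Kcnj1 and Trpm6 passed as higher, at 0.70 ± 0.20, 0.79 ± 0.23, 0.65 ± 0.20 and 0.89 ± 0.21. Under that scaling 7012 of all 13614 tested genes were called higher and 1778 lower, so 4 of 8 higher is near the share over all genes. Without the filter on low counts the same 4 passed as higher, and of the 3 only Egf passed as lower, at -0.78 ± 0.31, beside Slc12a3 at -0.55 ± 0.32 and Calb1 at -0.71 ± 0.32 (adjusted p = 0.045, 0.16 and 0.068). That fit called 5805 of all 40472 genes higher and 10928 lower. Slc12a3 kept its call without IRP replicate 1 (-0.63) or 2 (-1.47) and lost it without any one of the other 6 libraries, at -0.91 to -1.13 (adjusted p = 0.050 to 0.10). Calb1 lost its call without IRP replicate 3 (-1.16, adjusted p = 0.069) and without NP replicate 1, 2 or 4 (-1.14, -1.12 and -1.20; adjusted p = 0.061, 0.060 and 0.051), whereas Egf passed in all 8 such fits, from -0.87 to -1.73.

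**Figure D3:**
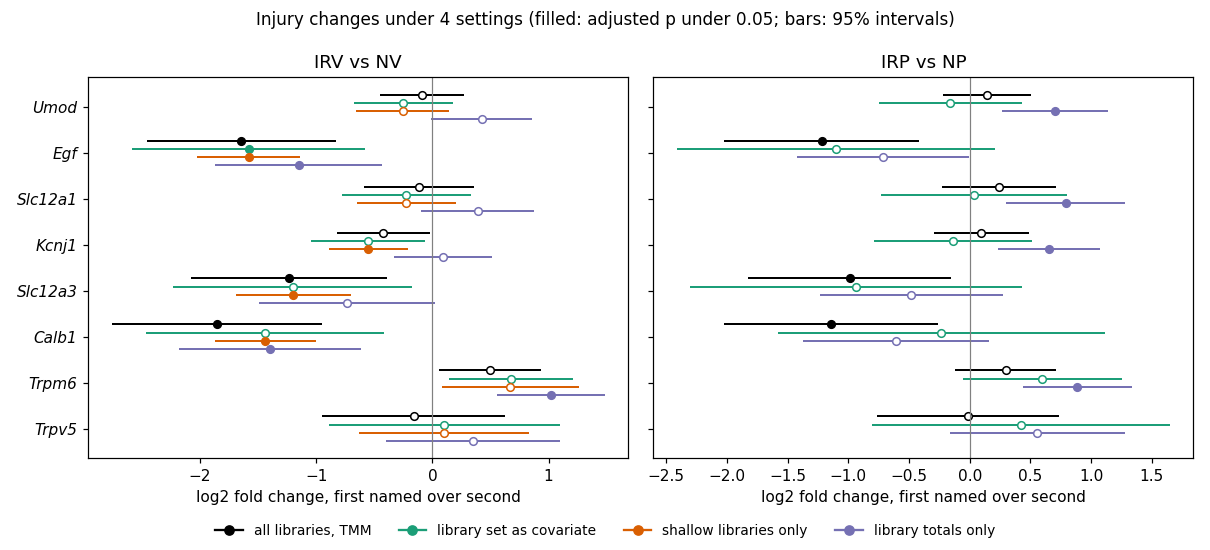
Log2 fold changes with 95% intervals (edgeR) of the 8 tested genes in IRV over NV and IRP over NP, with all libraries, with the depth set as a covariate, within shallow libraries (IRV over NV) and on scaling by library totals alone; filled points passed an adjusted p of 0.05. Egf, Slc12a3 and Calb1 lie left of 0 under every setting shown, and in IRV over NV the shallow-library points have the shortest intervals of these 3 genes. The shallow fit took its spread mostly from uninjured libraries.

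A ratio of 2 genes within a library does not depend on how libraries are scaled to each other. The log2 ratio of Slc12a3 to Slc12a1, the cotransporter of the distal convoluted tubule over that of the thick limb, was -1.24, -0.83, -1.24 and -1.23 in IRV replicates 1 to 4 and 0.075, -0.054, 0.27 and -0.24 in NV replicates 1 to 4. Under PJ34 it was -2.64, -0.72, -1.69 and -0.89 in IRP and 0.22, 0.21, -0.37 and 0.066 in NP. All 8 injured libraries were thus below all 8 uninjured ones. The ratio differed by -1.15 between IRV and NV and by -1.52 between IRP and NP (exact permutation p = 0.0286 each, two-sided, the smallest that 70 assignments give), but adjusted over the 4 comparisons both had p = 0.0571. The 2 shallow IRV libraries, at -1.24 and -0.83, were also below all 8 shallow uninjured libraries.

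Ratios of 4 other pairs of genes differed in direction and size. Calb1 over Umod averaged -3.49 ± 1.14 in IRP, -3.27 ± 0.74 in IRV, -1.85 ± 0.39 in NP and -1.44 ± 0.17 in NV (log2, SD, n = 4 each). Egf over Umod, both listed under the thick limb, averaged -1.85 ± 1.04 in IRP, -1.60 ± 0.36 in IRV, -0.14 ± 0.13 in NP and -0.025 ± 0.094 in NV. Kcnj1 over Slc12a1, also both listed under the thick limb, moved far less, with -2.28 ± 0.11 in IRP, -2.23 ± 0.12 in IRV, -2.14 ± 0.21 in NP and -1.92 ± 0.15 in NV. Over the 16 libraries Kcnj1 had a Pearson correlation of 0.814 with Slc12a1, 0.750 with Slc12a3 and 0.648 with Umod (log2 CPM). Every injured library, at -2.38 to -2.14 in IRP and -2.38 to -2.10 in IRV, still lay below the -2.09 to -1.74 of NV. Both injured groups overlapped the -2.32 to -1.85 of NP. Within the distal convoluted tubule, Trpm6 over Slc12a3 ranged from -4.71 to -1.46 in IRP and from -3.71 to -2.71 in IRV, all above the -5.48 to -4.97 of NP, and IRP replicate 2 at its lower end fell within the -6.07 to -4.61 of NV. The Egf, Kcnj1 and Trpm6 ratios were chosen after their values were seen and were not tested.

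**Figure D4:**
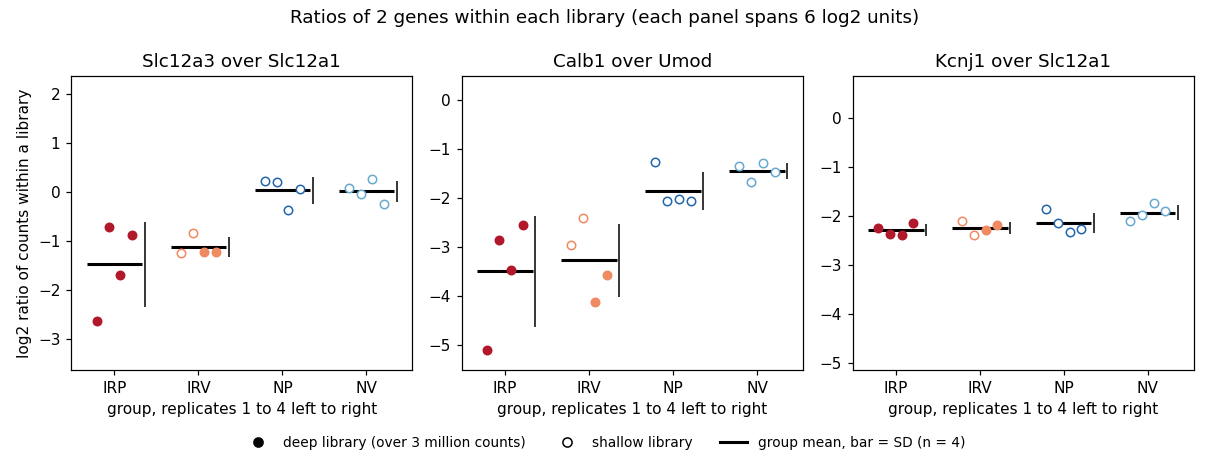
Log2 ratios of counts within each library for Slc12a3 over Slc12a1, Calb1 over Umod and Kcnj1 over Slc12a1, by group, with filled points for deep and open points for shallow libraries, lines for group means and bars for SD (n = 4). The first 2 ratios are lower in every injured library than in every uninjured one. The third differs less between the groups, with every injured library below every NV library but overlapping NP.

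PJ34 changed none of the 8 tested genes past the threshold in the injured kidney, where 0% of all tested genes passed; edgeR gave 1832 genes an unadjusted p under 0.05, and DESeq2 called 5 genes higher and 1277 lower, none of them among the 8. None of the 9 had groups that did not overlap, against 1.92% of all tested genes lower and 1.51% higher without overlap. Of the 8 genes 7 had a higher fitted level in IRP than in IRV, beside a median log2 difference of 0.018 over all tested genes. Several of the 8 vary together, as Egf with Slc12a3 (Pearson correlation 0.981) and Umod with Slc12a1 (0.847), so the 7 are not separate results. Egf differed by 0.41 (-0.37 to 1.20), Slc12a3 by 0.29 (-0.53 to 1.11) and Calb1 by 0.41 (-0.46 to 1.28), with adjusted p from 0.81 to 0.92 (edgeR). Each interval holds both a fall and a rise. Umod differed by 0.36 (0.0039 to 0.71, adjusted p = 0.36, edgeR), Slc12a1 by 0.37 (-0.086 to 0.83) and Kcnj1 by 0.31 (-0.067 to 0.69). With the depth set as a covariate Umod, Slc12a1 and Kcnj1 had 0.22, 0.27 and 0.20. Egf, Slc12a3 and Calb1 then had 0.47, 0.31 and 0.90, and none passed. Trpv5 differed by 0.11 (-0.57 to 0.79) and Trpm6 by -0.090, the only negative value. Pvalb averaged 1.87 ± 2.07 CPM in IRP and 1.76 ± 0.882 CPM in IRV (exact permutation p = 0.971, two-sided, n = 4 each). The Slc12a3 to Slc12a1 ratio averaged -1.48 ± 0.88 in IRP and -1.13 ± 0.20 in IRV, a difference of -0.35 that is smaller than the IRP SD (two-sided exact permutation p = 0.571). Among the 6 deep libraries alone, Calb1 had 0.91 ± 0.67, Egf 0.48 ± 0.65 and Umod 0.22 ± 0.22, and none passed.

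In uninjured kidneys PJ34 moved no tested gene past the threshold either, with 501 genes at an unadjusted p under 0.05 and 0% called by edgeR and 3 called higher and 1 lower by DESeq2, none of them among the 8. Egf averaged 1246 ± 148 CPM in NP and 1255 ± 54.0 CPM in NV, and Slc12a3 averaged 693 ± 121 CPM in NP and 672 ± 51.9 CPM in NV. Calb1 averaged 382 ± 45.6 CPM in NP and 471 ± 48.3 CPM in NV, a difference of -0.30 (-1.17 to 0.56). Since the fit held 1 estimate of spread per gene for all groups, such intervals also carry the wider spread of injured libraries. The Calb1 SD was 11.9% of the mean in NP and 10.2% in NV, against 59.8% in IRP and 44.2% in IRV. Kcnj1 had 146, 156, 147 and 161 CPM in NP, below every NV library, as for 1.15% of all tested genes, with a difference of -0.21 (-0.60 to 0.19; adjusted p = 1.00, edgeR). The other thick limb and distal genes overlapped between NP and NV. The interaction, which asks whether PJ34 acted differently with and without injury, gave 0.71 (-0.52 to 1.94) for Calb1 and 0.52 (-0.028 to 1.06) for Kcnj1, and adjusted p from 0.48 to 0.98 over the 8 genes. Of all tested genes 1550 had an unadjusted p under 0.05 for the interaction, 0% passed by edgeR, and DESeq2 called 1 positive and 21 negative, none among the 8.

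Egf, Slc12a3 and Calb1 spread widely among the injured libraries. The highest IRP library had 8.37 times the Egf CPM of the lowest, 8.61 times its Slc12a3 and 7.84 times its Calb1. The same ranges were 1.67-fold, 1.97-fold and 2.67-fold in IRV. In NV they were 1.08-fold, 1.19-fold and 1.26-fold. IRP replicate 1 was the lowest of its group for 8 of the 9 genes, Trpm6 being the exception, and IRP replicate 2 the highest for 5. Markers of injured tubules (7 genes, among them Havcr1 and Lcn2) summed to 4223, 2312, 3071 and 3717 CPM in IRP replicates 1 to 4. Proximal tubule markers (8 genes) summed to 3621, 7201, 4808 and 4914 CPM in the same libraries. The library lowest in Egf and Slc12a3 thus had the highest injury marker sum and the lowest proximal tubule sum, and the library highest in both had the reverse. IRV replicate 1, the lowest of its group for 6 of the 9 genes, had the lowest proximal tubule sum of its group, 3589.5 CPM, but not the highest injury sum, 3263 CPM beside 2892 to 3836 CPM in the other IRV libraries.

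Markers of several other cell types moved with injury as well. Beside the counts below, 15.9% of all tested genes were called higher and 11.1% lower in IRV over NV. In IRP over NP 19.6% were called higher and 24% lower. Proximal tubule markers summed to 3621 to 7201 CPM in IRP, 3589.5 to 5148 in IRV, 8746 to 10689 in NP and 8009.7 to 10122 in NV, with 8 of 8 called lower in both injury comparisons (edgeR). Fibroblast markers (7 genes) summed to 920.4 to 2434, 1293 to 2057, 260.4 to 382 and 146 to 339 CPM in the same order, with 6 of 7 called higher in each injury comparison, and macrophage markers (7 genes) to 395 to 1017, 512 to 880.0, 60.5 to 122 and 65.0 to 94.0 CPM, with 7 of 7 called higher. The neighbouring intercalated cells had 123 to 321, 171 to 222, 165 to 229 and 188 to 216 CPM over 6 markers, with none called in IRV over NV and 2 of 6 called higher in IRP over NP. Principal cells of the collecting duct had 64.6 to 186, 101 to 143, 156 to 227 and 150.4 to 221 CPM over 7 markers, with 1 called lower in each injury comparison and 1 called higher in IRP over NP. Of 5 thin limb markers 2 were higher and 1 lower in IRV over NV, and 2 higher in IRP over NP. Podocyte markers were higher for 5 of 6 in both, endothelial markers for 2 of 7 in IRV over NV and 4 of 7 in IRP over NP, and lymphocyte markers for 2 of 4 in both, with 1 lower in IRP over NP. With the depth set as a covariate, proximal tubule markers were lower for 8 of 8 in IRV over NV and 1 of 8 in IRP over NP. Podocyte markers were then higher for 5 of 6 and 1 of 6, and no endothelial marker was called in either. Fibroblast markers kept 6 of 7 in both, and macrophage markers had 7 of 7 and 5 of 7. Thin limb counts stayed the same, lymphocyte markers were higher for 2 and 1 of 4, and no intercalated cell marker was called. Principal cells kept 1 lower in IRV over NV and had none called in IRP over NP. In that fit 7.93% of all genes were higher and 6.13% lower in IRV over NV, and 2.52% and 0.786% in IRP over NP. The part of these marker shifts in the levels of the 9 genes was not tested.

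Several other genes listed under the distal convoluted tubule and the WNK kinase pathway, which sets NCC activity, fell in IRV as Slc12a3 did. Proximal tubule markers were called lower there too, for 8 of 8, and in which cells the listed genes changed was not tested. Of 16 tested members 7 were lower and 1 higher in IRV than in NV, with a median log2 change of -0.49 beside -0.030 over all tested genes, of which 11.1% were called lower and 15.9% higher. Wnk4, a kinase that acts on NCC, had 62.8 ± 12.8 CPM in IRV and 128 ± 12.2 CPM in NV, a change of -0.999 ± 0.21 (adjusted p = 0.0021, edgeR). Fxyd2, a subunit of the sodium pump, changed by -0.83 ± 0.18, and Kcnj16, part of the basolateral potassium channel, by -0.65 ± 0.15. Slc41a1, a magnesium carrier, was the member that rose, by 0.97 ± 0.21. In IRP over NP 6 were lower and 1 higher, beside 24% lower and 19.6% higher of all tested genes, with a median of -0.26; Wnk4 changed by -0.53 ± 0.20, Fxyd2 by -0.48 ± 0.18, Kcnj16 by -0.46 ± 0.15 and Slc41a1 by 0.88 ± 0.20. Within the shallow libraries 7 were lower and none higher in IRV over NV, beside 6.83% lower and 6.49% higher of all genes, with a median of -0.59. With the set as a covariate 5 were lower in IRV over NV and none in IRP over NP, beside 6.13% and 0.786% of all genes. Scaled by library totals alone, none was lower, 6 and 7 were higher, and the medians were 0.033 and 0.31. Of all 13614 tested genes, 5716 and 7012 were then higher and 246 and 1778 lower, with medians of 0.49 and 0.57. Between IRP and IRV, Hsd11b2, which inactivates glucocorticoid in aldosterone-sensitive cells, had 0.51 ± 0.23 and Nr3c2, the mineralocorticoid receptor, 0.37 ± 0.16, and neither passed (adjusted p = 0.33 and 0.31).

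Most genes listed under distal calcium handling fell beside Calb1 in IRV, and in which cells they fell was not tested. Of 8 tested members 5 were lower and 1 higher in IRV than in NV, with a median of -0.85, beside 11.1% lower and 15.9% higher of all tested genes. S100g, the small calbindin D9K, had 51.9 ± 24.5 CPM in IRV and 144 ± 13.0 CPM in NV, a change of -1.52 ± 0.41 (adjusted p = 0.011, edgeR). Slc8a1, the sodium and calcium exchanger, changed by -1.18 ± 0.31, Kl, which encodes Klotho, the FGF23 co-receptor, by -1.23 ± 0.23, and Klk1, tissue kallikrein of the connecting tubule, by -1.22 ± 0.30. Atp2b1, a plasma membrane calcium pump, was the member that rose, by 0.41 ± 0.11. In IRP over NP 3 were lower, namely Slc8a1 at -0.77 ± 0.30, Kl at -0.81 ± 0.23 and Klk1 at -0.84 ± 0.30, and Atp2b1 was higher at 0.47 ± 0.11, with a median of -0.39. Of all tested genes 24% were lower and 19.6% higher there, a lower share not far from 3 of 8. Cyp24a1, the enzyme that breaks down vitamin D, averaged 82.2 ± 81.9 CPM in IRP and 40.6 ± 9.79 CPM in IRV, and the difference of 0.98 ± 0.52 did not pass (adjusted p = 0.47). Within the shallow libraries 5 were lower and none higher in IRV over NV, beside 6.83% lower and 6.49% higher of all genes. With the set as a covariate 2 were lower in IRV over NV, Kl and Klk1, beside 6.13% of all genes. In IRP over NP that fit called none of the list lower, beside 0.786% of all genes, and the list median was -0.071. Under library-total scaling, 4 were lower and 2 higher in IRV over NV, and none lower and 4 higher in IRP over NP. Of all 13614 tested genes, 246 were then lower and 5716 higher in IRV over NV, and 1778 lower and 7012 higher in IRP over NP.

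**Figure D5:**
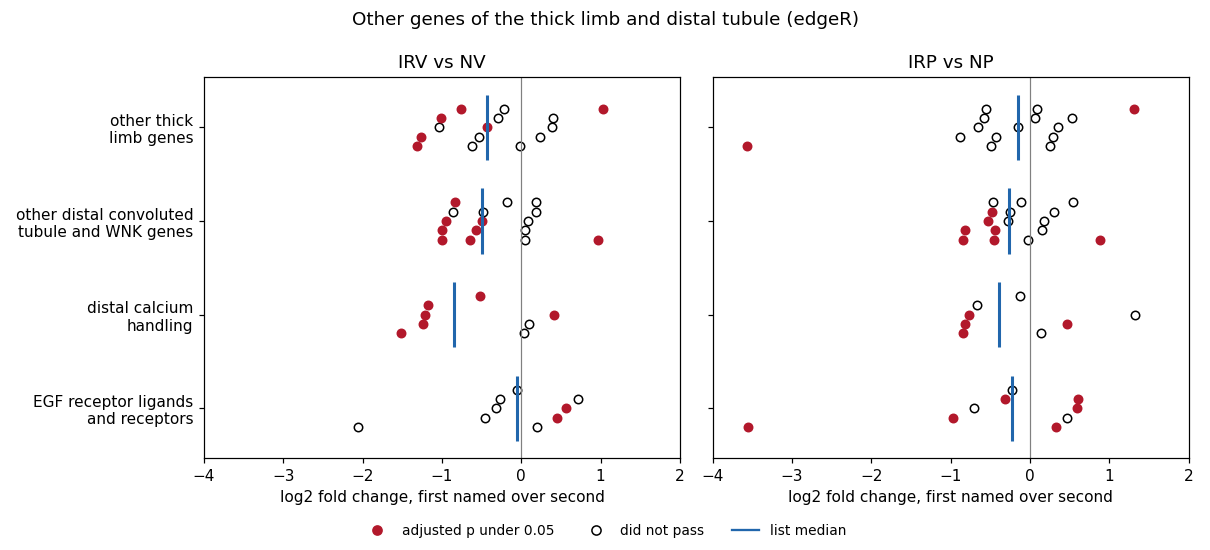
Log2 fold changes (edgeR) of every tested gene in 4 lists of related genes for IRV over NV and IRP over NP; filled red points passed an adjusted p of 0.05 and blue lines are list medians. Red points lie mostly left of 0 for distal convoluted tubule and calcium genes and on both sides for EGF receptor ligands and receptors.

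Other thick limb genes were split. Of 15 tested members 5 were lower and 1 higher in IRV than in NV, with a median of -0.43, and 1 lower and 1 higher in IRP than in NP, with a median of -0.16. Of all tested genes 11.1% were lower and 15.9% higher in IRV over NV, and 24% lower and 19.6% higher in IRP over NP, where 1 of 15 each way is below those shares. Cldn19, a claudin of the thick limb's calcium and magnesium pathway, rose in both, by 1.02 ± 0.28 and 1.32 ± 0.27 (adjusted p = 0.012 and 0.0011, edgeR). Cldn10, which forms the sodium pathway, had 59.6 ± 11.2 CPM in IRV and 81.3 ± 6.31 CPM in NV and changed by -0.43 ± 0.15. Wfdc15b changed by -1.31 ± 0.39 and Tmem207 by -1.26 ± 0.43 in IRV over NV, and by -0.66 ± 0.35 and -0.88 ± 0.39 in IRP over NP without passing there. Bsnd, the barttin subunit of the basolateral chloride channels, averaged 39.3 ± 12.7 CPM in IRP and 23.3 ± 7.31 CPM in IRV, so it differed by 0.67 ± 0.23 (adjusted p = 0.13). Tmem72 levels split by depth set, with 99.3 to 197 CPM where deep (6 libraries) and 1419 to 2517 CPM where shallow (10 libraries), and the change of -3.57 ± 0.63 in IRP over NP is the call counted as lower. With the set as a covariate none of the 15 passed in either injury comparison. Of all genes 6.13% were then lower and 7.93% higher in IRV over NV, and 0.786% lower and 2.52% higher in IRP over NP. Within the shallow libraries 2 of the 15 were lower in IRV over NV, beside 6.83% of all genes. On library totals alone, 4 were higher and none lower in IRV over NV, and 7 higher and 1 lower in IRP over NP. Of all 13614 tested genes, 5716 were then higher and 246 lower in IRV over NV, and 7012 higher and 1778 lower in IRP over NP.

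Egf acts through receptors of the ERBB family, and in IRV no other tested gene listed among its family's ligands and receptors passed as lower. Of 9 tested ligands and receptors other than Egf 2 were higher and none lower in IRV than in NV, with a median of -0.049, beside 15.9% higher and 11.1% lower of all tested genes. Erbb4, a receptor of the neuregulins, had 55.0 ± 2.80 CPM in IRV and 37.2 ± 6.21 CPM in NV, a change of 0.56 ± 0.13 (adjusted p = 0.0043, edgeR), and Erbb2, the partner receptor without a ligand of its own, changed by 0.45 ± 0.16. Egfr, the receptor of Egf itself, had 78.4 ± 5.45 CPM in IRV and 80.8 ± 2.24 CPM in NV, and Hbegf, another of its ligands, differed by 0.72 ± 0.32 without passing (adjusted p = 0.10). Egfr differed by -0.18 ± 0.081 in IRP over IRV, also without passing (adjusted p = 0.33). In IRP over NP 3 were higher and 3 lower, beside 19.6% higher and 24% lower of all tested genes, so the counts in both comparisons lie near the shares over all genes. There Erbb2 changed by 0.59 ± 0.15, Erbb4 by 0.32 ± 0.12 and Egfr by -0.32 ± 0.084. The ligand genes Ereg and Nrg1 were the other 2 lower genes, at -3.56 ± 0.999 and -0.98 ± 0.26; Ereg had 0.142 to 0.881 CPM in all deep and 1.82 to 15.3 CPM in all shallow libraries. With the set as a covariate Erbb4 was the 1 member called in IRV over NV, as higher, beside 7.93% of all genes higher and 6.13% lower. In IRP over NP that fit called none of the list, beside 2.52% of all genes higher and 0.786% lower. Within the shallow libraries none was called, beside 6.49% of all genes higher and 6.83% lower. When library totals were the sole scaling, 5 were higher in IRV over NV, and 4 higher and 1 lower in IRP over NP. Of all 13614 tested genes, 5716 were then higher and 246 lower in IRV over NV, and 7012 higher and 1778 lower in IRP over NP.

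Across the 16 libraries Egf varied more closely with Slc12a3 and Calb1 than with Umod or Slc12a1. The Pearson correlation of log2 CPM was 0.981 between Egf and Slc12a3 and 0.953 between Egf and Calb1, against 0.314 between Egf and Umod and 0.444 between Egf and Slc12a1. Umod and Slc12a1 had 0.847, and Trpm6 and Egf -0.543. Among 4425 other genes whose log2 CPM averaged 5 or more, those most like Slc12a3 were Egf, Klk1 (0.976), Abca13 (0.976), Defb1, which encodes a defensin (0.964), and Scnn1a, a subunit of the epithelial sodium channel (0.960). Those most like Umod were Slc12a1, Atp6v1b1, a proton pump subunit of intercalated cells (0.804), Rnf123 (0.800), Shoc2 (0.795) and Map3k11 (0.784). These values are descriptions over libraries that share injury group and depth set.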

How the data were processed

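The authors deposited estimated counts by gene for 16 libraries, as whole numbers with no normalisation. The build was GRCm39 per the submitters' processing notes, which also name Salmon 1.3.0, Trim Galore 0.6.6, DESeq2 1.30.1 and FastQC 0.11.3; per the labels' protocols the library kit is directional. Symbols were matched by Ensembl ID for 40276 of 40472 IDs in a table of gene IDs and symbols; no annotation of the authors' build was used here, so no coordinates of counted genes are given. All 16 libraries entered 1 fit by group (edgeR 4.0.16 in R 4.3.3, TMM, filterByExpr with a minimum count of 10, 13614 genes tested). SEs and 95% intervals are those the F statistic implies; for Trpm6 in IRP over IRV edgeR's Poisson bound makes the p-value larger than the interval implies. Pvalb, below the filter, was compared by exact permutation of CPM, chosen after its counts were seen. Ratios were compared by exact permutation. DESeq2 1.42.0, RLE factors, library totals, no filter, the library set, a replicate block and leaving out each library were the alternatives.

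All 9 members were named. Of each related list, the 4 genes with the smallest p in IRV over NV and the 2 with the smallest p in IRP over IRV were named; Atp2b1 was added after its values were seen, as was Tmem72's and Ereg's split by depth. The members, lists and library sets were chosen with earlier results of these data known. The fit was tested on simulated counts with 200 changed genes. No pair of libraries of a group agreed within sampling noise (lowest chi-square per degree of freedom 1.77). Library totals of 973812 to 6169748 counts limit precision for Trpm6, Trpv5 and Pvalb. Counting intervals are not printed, and a second promoter motif is not reported here.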

Additional observations from a re-analysis of the deposited data

Results flagged for a closer look

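In a screen of 40 groups of 4 libraries, 36 over the CPM of the 9 genes and 4 over the Slc12a3 to Slc12a1 ratio, 3 held a library set apart from the other 3 by more of the range than Dixon's 95% critical value allows. Chance flags about 1 in 20 groups, so 3 of 40 is near that rate. Kcnj1 had 205 CPM in NV replicate 4, above the others of its group. Calb1 had 399.8 CPM in NV replicate 2, below the others. The log2 ratio of Slc12a3 to Slc12a1 was -0.83 in IRV replicate 2, above the other IRV libraries. IRP replicate 1, the lowest of its group for 8 of the 9 genes, did not pass this limit for any gene.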

How the results depend on the processing

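RLE factors and the replicate block left the same 3 genes lower in both injury comparisons, against 3 and 2 with DESeq2, which lost Slc12a3 in IRP over NP. Of all 13614 tested genes, RLE factors called 1554 lower in IRV over NV and 3297 in IRP over NP. The block called 1600 and 3245, and DESeq2 1559 and 3280. Same-numbered libraries did not deviate together, so the block pairs only numbers. On library totals alone 1 gene was higher and 2 lower in IRV over NV, beside 5716 higher and 246 lower of all 13614 tested genes. In IRP over NP 4 were then higher and 0 lower, beside 7012 and 1778. Without the low-count filter 1 was higher and 2 lower in IRV over NV, beside 3124 higher and 600 lower of all 40472 genes. In IRP over NP that fit had 4 higher and 1 lower, beside 5805 and 10928. With the depth set as a covariate 1 was lower in IRV over NV and 0 in IRP over NP, beside 6.13% and 0.786% of all genes. For the Slc12a3 to Slc12a1 ratio the replicate block cannot move the difference (-1.15 in IRV over NV, -1.52 in IRP over NP), since the mean of paired differences is the difference of means, and its p cannot go below 0.125; in shallow libraries it was -1.05, where the smallest p is 0.133. In NP over NV the Calb1 to Umod ratio differed by -0.41, opposite in sign to 0.020. Small differences changed sign. In IRV over NV, library totals gave Umod 0.43, Slc12a1 0.39, Kcnj1 0.091 and Trpv5 0.35; no filter gave Umod 0.22, Slc12a1 0.19 and Trpv5 0.15; the covariate and the shallow libraries gave Trpv5 0.10 each. In IRP over NP, the covariate gave Umod -0.16, Kcnj1 -0.14 and Trpv5 0.42, library totals gave Trpv5 0.56 and no filter gave it 0.42. In IRP over IRV, Trpm6 was 0.023 without a filter, 0.034 with the covariate and 0.032 in deep libraries. In NP over NV, library totals gave Egf 0.0038, and the block gave Slc12a1 -0.018 and Slc12a3 -0.015. The cause was not tested. When 1 library was left out, 2 to 3 genes were lower and 0 to 1 higher in IRV over NV, and 1 to 4 lower and 0 to 1 higher in IRP over NP. Of the 13937 to 14286 genes tested for IRV over NV, those fits called 1122 to 2380 lower and 1361 to 2379 higher. Of the 13909 to 14263 tested for IRP over NP, they called 2936 to 4104 lower and 1972 to 2595 higher. The ratio then spanned -1.25 to -1.06 in IRV over NV, -1.77 to -1.13 in IRP over NP, -0.60 to 0.035 in IRP over IRV and -0.064 to 0.15 in NP over NV. The genes with a sign change then spanned, in IRV over NV, -0.26 to 0.0029 for Slc12a1 and -0.38 to 0.048 for Trpv5; in IRP over NP, -0.046 to 0.28 for Umod, -0.082 to 0.31 for Kcnj1 and -0.43 to 0.24 for Trpv5; in IRP over IRV, -0.036 to 0.76 for Egf, -0.14 to 0.63 for Slc12a3, -0.25 to 0.35 for Trpv5 and -0.840 to 0.650 CPM for Pvalb; in NP over NV, -0.069 to 0.058 for Egf, -0.070 to 0.12 for Slc12a1, -0.034 to 0.13 for Slc12a3, -0.067 to 0.29 for Trpm6, -0.27 to 0.23 for Trpv5 and -1.09 to 0.805 CPM for Pvalb; and in the interaction, -0.023 to 0.77 for Egf, -0.18 to 0.59 for Slc12a3 and -0.20 to 0.39 for Trpv5. Depth limits Trpm6, Trpv5 and Pvalb, at 1 to 213 counts per library.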
